A study of Mus musculus with 18 samples.

Results

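Synj1 and Itsn1 were studied in mouse brain cortex together with 8 other genes of synaptic vesicle endocytosis. The 10 genes were chosen by symbol: Synj1 and Itsn1 lie in the duplicated segment of the Dp16 chromosome, Synj2 and Itsn2 are their paralogues elsewhere in the genome, and Dnm1, Sh3gl2, Amph, Bin1, Eps15 and Rab5a encode partners in the same process. All 10 were found among the 55385 genes of the deposited tables, and all 10 passed the filter on low counts, which left 18717 genes for testing. Polyadenylated RNA had been sequenced from cortex of 6 Dp16, 6 Dp16_2xIFNRs and 6 WT mice, 3 males and 3 females in each group, aged 17.1 to 18.0 weeks, and the labels record no treatment. Dp16 mice carry a segmental duplication of chromosome 16 and are used as a model of trisomy 21, with 3 copies of each gene in the segment instead of 2. Dp16_2xIFNRs mice carry the same duplication with the interferon receptor genes inside it back at 2 copies. WT mice were C57BL/6J, and the labels give no strain background for the other groups. The duplication reaches every cell of the animal and holds many genes beside Synj1 and Itsn1, so a difference between genotypes cannot be assigned to either of them.

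After a synaptic vesicle has fused with the membrane, its components are taken back by endocytosis. Clathrin and its adaptors form a coat, proteins with curved BAR domains shape the neck of the bud, and the GTPase dynamin cuts it. Synaptojanin 1, the product of Synj1, is a phosphatase of membrane phosphoinositides that lets the coat fall off, and intersectin 1, the product of Itsn1, is a scaffold that brings dynamin, synaptojanin and the actin machinery together.

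The library totals were 46346019 to 67281449 counts in Dp16, 47912340 to 61150849 in Dp16_2xIFNRs and 47554526 to 52006799 in WT. At this depth the members had between 43447 (Itsn2) and 1470374 (Dnm1) counts over the 18 libraries. The 7 neuronal markers summed to 6170 to 7382 CPM (counts scaled to a common library size) in Dp16, 6678 to 7309 CPM in Dp16_2xIFNRs and 6417 to 7826 CPM in WT, with overlapping ranges. The smallest edgeR adjusted p of the 9 marker lists in a comparison with WT was 0.157 in Dp16 and 0.0572, for an oligodendrocyte marker, in Dp16_2xIFNRs. In Dp16_2xIFNRs vs WT 7 of 7 oligodendrocyte markers were higher (folds 1.01 to 1.34), beside 3 of 7 neuronal markers. Of the 6 microglia markers 0 were higher there (folds 0.786 to 0.974). None of the markers in these lists was called. The choroid plexus markers reached 378 CPM in 1 Dp16 library, 19.2 CPM in the highest Dp16_2xIFNRs library and 196 CPM in the highest WT library. The part of such tissue in the results was not tested. In these bulk samples fewer cells of a type and less RNA per cell cannot be told apart. The labels name each library a separate sample but not the way animals were collected, so p-values measure the spread between these samples.

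In the GENCODE M21 annotation of GRCm38, Synj1 lies at chr16:90936092-91011308 on the minus strand and Itsn1 at chr16:91729281-91920597 on the plus strand. Synj2 lies at chr17:5941280-6044290 and Itsn2 at chr12:4592638-4713962, both on the plus strand, and the other partners lie on chromosomes 2 (Dnm1), 4 (Sh3gl2 and Eps15), 13 (Amph), 17 (Rab5a) and 18 (Bin1). Between Synj1 and Itsn1, over 718 kb, lies the interferon receptor cluster that sets the duplication genotypes apart: Synj1 ends 361 kb before the start of Ifnar2, and Itsn1 starts 164 kb after the end of Ifngr2. The promoters of both genes and of their paralogues are shown as sequence at annotated starts of the genes on which the results turn. They are taken from RefSeq, build GRCm38.p6, from 250 bases before to 50 bases after a start site, written 5′ to 3′ along the gene's own strand. Capitals mark GC boxes, searched as GGGCGG and as CCGCCC on the other strand.
Synj1, upstream start, chr16:91011259-91011558, minus strand: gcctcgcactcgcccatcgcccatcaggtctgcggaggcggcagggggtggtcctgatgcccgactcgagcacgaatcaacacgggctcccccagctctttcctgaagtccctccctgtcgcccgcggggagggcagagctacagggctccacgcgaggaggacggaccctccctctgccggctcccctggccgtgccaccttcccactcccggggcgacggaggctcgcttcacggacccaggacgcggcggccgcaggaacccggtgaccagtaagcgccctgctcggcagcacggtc
Synj1, downstream start, chr16:91011046-91011345, minus strand: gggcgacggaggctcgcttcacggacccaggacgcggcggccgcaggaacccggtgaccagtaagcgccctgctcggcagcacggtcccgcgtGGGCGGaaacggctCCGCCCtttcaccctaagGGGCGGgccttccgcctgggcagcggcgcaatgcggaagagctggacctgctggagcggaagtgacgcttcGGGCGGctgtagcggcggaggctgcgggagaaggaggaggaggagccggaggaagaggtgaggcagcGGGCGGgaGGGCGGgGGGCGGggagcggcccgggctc
Itsn1, chr16:91729121-91729420, plus strand: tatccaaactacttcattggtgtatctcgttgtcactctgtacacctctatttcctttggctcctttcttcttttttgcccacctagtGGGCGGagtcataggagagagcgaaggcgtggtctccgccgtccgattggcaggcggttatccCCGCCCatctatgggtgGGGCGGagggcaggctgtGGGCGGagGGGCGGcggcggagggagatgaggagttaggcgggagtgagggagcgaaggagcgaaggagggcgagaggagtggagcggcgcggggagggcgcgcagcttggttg
Synj2, chr17:5975330-5975629, plus strand: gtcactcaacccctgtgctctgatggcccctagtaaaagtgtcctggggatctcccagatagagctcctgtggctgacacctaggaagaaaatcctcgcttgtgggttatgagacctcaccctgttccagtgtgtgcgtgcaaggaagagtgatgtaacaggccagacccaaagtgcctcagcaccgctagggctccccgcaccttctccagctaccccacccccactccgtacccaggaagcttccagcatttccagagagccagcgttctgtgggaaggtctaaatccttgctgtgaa
Itsn2, chr12:4592758-4593057, plus strand: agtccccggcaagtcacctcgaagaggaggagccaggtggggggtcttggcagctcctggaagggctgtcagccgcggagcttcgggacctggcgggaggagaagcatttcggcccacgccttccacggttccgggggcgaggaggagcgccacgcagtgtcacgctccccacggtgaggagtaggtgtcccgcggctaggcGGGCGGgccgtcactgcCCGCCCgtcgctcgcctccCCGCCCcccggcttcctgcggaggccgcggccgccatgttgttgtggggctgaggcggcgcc

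The downstream Synj1 window held 7 GC boxes and 36 CG dinucleotides, and the upstream Synj1 window, whose start site is 213 bases away and which overlaps it, held no GC box and 30 CG dinucleotides. Itsn1 had 5 GC boxes, 23 CG dinucleotides and also 2 CCAAT boxes (CCAAT, or ATTGG on the other strand), none of which overlapped a GC box. Itsn2 had 3 GC boxes and 32 CG dinucleotides. The Synj2 window, whose RefSeq start lies inside the GENCODE span of the gene, had no GC box and 6 CG dinucleotides. Among all 32851 RefSeq promoters of this length 35.7% held at least 1 GC box and 10.7% held 3 or more, 37.4% held a CCAAT box, and the median was 7 CG dinucleotides. The TATA box letters TATAAA, or TTTATA on the other strand, were in none of the promoters of the 9 members searched and in 13.6% of all promoters. Bin1 was left out of this search, and the Eps15 window lies at a start inside its gene (start site 109343056, GENCODE gene start 109280268). These are matches of letters and do not show that a factor binds.

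Per length of transcript the members covered a wide range in WT cortex, and the order of levels is given in RPKM, the authors' read counts scaled by gene length and library total. Dnm1, the neuronal dynamin, stood highest with 327 ± 28.01 RPKM (SD, n = 6), followed by Bin1, a BAR domain protein of neurons and oligodendrocytes, with 99.9 ± 3.61 RPKM. Synj1 followed with 52.7 ± 6.34 RPKM in WT. Its WT range overlapped that of Amph, encoding amphiphysin, at 49.5 ± 3.86 RPKM, and neighbours from Amph through Eps15 (43.2 ± 2.47 RPKM) and Sh3gl2 (40.1 ± 4.42 RPKM) to Rab5a (34.6 ± 1.27 RPKM) overlapped likewise. Synj2 at 15.6 ± 2.90 RPKM, Itsn1 at 9.91 ± 0.285 RPKM and Itsn2 at 7.68 ± 0.736 RPKM followed, with no overlap between neighbours in that order. In the duplication genotypes Synj1 had 78.6 ± 5.23 RPKM (Dp16) and 79.3 ± 4.08 RPKM (Dp16_2xIFNRs), and its range lay clear of Amph in both. Itsn1 had 13.8 ± 0.514 RPKM in Dp16, where its range overlapped that of Synj2, and 13.8 ± 1.00 RPKM in Dp16_2xIFNRs, where it did not. The RPKM of Itsn1 rests on a length of 19992 bases, against 7234 bases for Synj1, so its place in the order depends on the transcripts that entered that length.

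Synj1 and Itsn1 rose in Dp16 cortex, and none of the 8 partners outside the segment passed the test. Synj1 had 502 CPM in the lowest, 576 in the median and 618 in the highest of the 6 Dp16 libraries, against 324, 376 and 439 CPM in WT. Each Dp16 library lay above the highest WT library, and the highest pair of WT libraries were both from males. Synj1 was 1.49-fold higher in Dp16 than in WT (log2 fold change 0.57, SE 0.0643, 95% interval of the fold 1.35 to 1.63, adjusted p = 1.21e-05, edgeR's quasi-likelihood test with Benjamini-Hochberg adjustment over all genes tested). Itsn1 had 256, 275 and 299 CPM in the lowest, median and highest Dp16 libraries, against 192, 197 and 215 CPM in WT. The groups again did not overlap, and the WT libraries lay close together. Itsn1 was 1.39-fold higher in Dp16 than in WT (log2 fold change 0.47, SE 0.0538, interval 1.28 to 1.498, edgeR adjusted p = 1.45e-05). These 2 of 10 members compare with 0.636% of all tested genes called higher and 0.748% called in either direction. Both lie in the segment, where 64 of the 111 tested genes outside the receptor cluster were called higher. Of all tested genes, 0.721% did not overlap and were higher in Dp16.

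**Figure D1:**
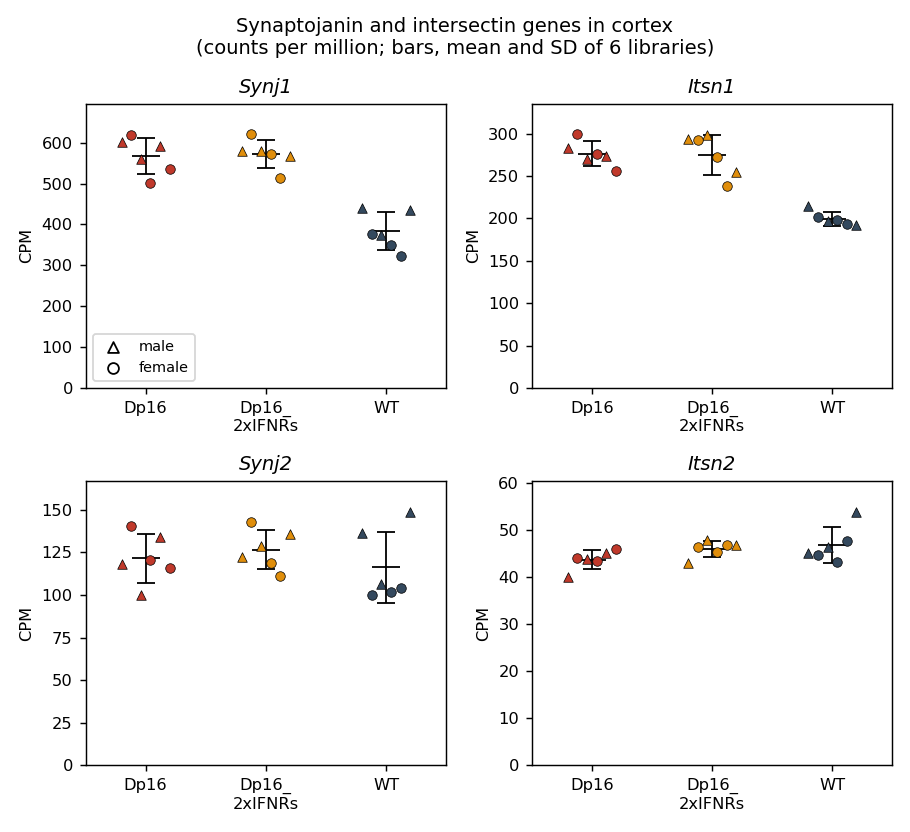
CPM of Synj1, Itsn1, Synj2 and Itsn2 in each library, with genotype on the x axis and bars for the mean and SD of 6 libraries; triangles are males and circles females, and each y axis starts at 0. For Synj1 the Dp16 and Dp16_2xIFNRs libraries lie at 502 CPM or higher and the WT libraries at 439 CPM or lower, whereas for Synj2 and Itsn2 the 3 groups overlap.

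The same pair rose in Dp16_2xIFNRs. Synj1 had 513, 575 and 621 CPM in the lowest, median and highest Dp16_2xIFNRs libraries, and the highest WT library stood at 439 CPM. It was 1.495-fold higher than in WT (log2 fold change 0.58, SE 0.0643, interval 1.36 to 1.64, edgeR adjusted p = 1.01e-05). Itsn1 had 238, 282 and 298 CPM, with the highest WT library at 215 CPM, and was 1.38-fold higher (log2 fold change 0.46, SE 0.0538, interval 1.27 to 1.49, edgeR adjusted p = 2.13e-05). No Dp16_2xIFNRs library of either gene fell within the WT range. In this comparison 0.737% of all tested genes were called higher, 1.05% were called in either direction, and 0.93% did not overlap and were higher. Of the 111 segment genes outside the receptor cluster, 63 were called higher. Both comparisons use the same 6 WT libraries, so their values are not independent.

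Between the duplication genotypes no member was called. Synj1 averaged 572 ± 34.7 CPM in Dp16_2xIFNRs and 568 ± 44.0 CPM in Dp16 (SD, n = 6 each), a fold of 1.01 with a 95% interval of 0.918 to 1.10. Itsn1 averaged 275 ± 24.1 CPM in Dp16_2xIFNRs and 276 ± 14.3 CPM in Dp16, a fold of 0.994 with an interval of 0.920 to 1.07. Differences of up to about these bounds remain possible for each gene. Of the 10 members 0 were called by edgeR, by DESeq2 or by limma-voom, and 0 had an unadjusted p under 0.05 (2.19% of all genes did), where edgeR called 4 genes or 0.0214% of those tested. Those 4 are the interferon receptor genes, whose median fold was 0.681, although the call of Il10rb was lost in 8 of the 18 fits that left out 1 library, with a replicate block (edgeR adjusted p = 0.0812) and with the series of the sample identifier as a term (edgeR adjusted p = 0.0904).

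The paralogues outside the segment were not called in either comparison with WT. Synj2, another phosphoinositide phosphatase that is also found outside neurons, averaged 121 ± 14.3 CPM in Dp16, 127 ± 11.5 CPM in Dp16_2xIFNRs and 116 ± 21.0 CPM in WT (SD, n = 6 each). Its groups overlapped, and its folds against WT were 1.05 (interval 0.909 to 1.21) in Dp16 and 1.09 (0.946 to 1.26) in Dp16_2xIFNRs. Itsn2, the other intersectin scaffold, averaged 43.8 ± 2.08 CPM in Dp16, 46.1 ± 1.70 CPM in Dp16_2xIFNRs and 46.9 ± 3.78 CPM in WT. The groups of Itsn2 overlapped, and its Dp16 fold of 0.933 (interval 0.867 to 1.004, log2 fold change -0.10) did not pass the test (edgeR adjusted p = 0.603). WT replicate 6 held the highest Itsn2 value at 54.0 CPM, and without it the log2 fold change was -0.05 in Dp16 (edgeR adjusted p = 0.789) and 0.02 in Dp16_2xIFNRs (edgeR adjusted p = 0.924). Synj2 shares 297 exon bases with Serac1 on the opposite strand, and Itsn2 shares 1488 exon bases with the antisense gene Gm48678. Since the strand setting of the counting is not given in the sources used here, the values of these paralogues are uncertain to that extent.

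Set against its paralogue within each library, where the scaling of the library cancels, each segment gene stood higher in both duplication genotypes. The log2 CPM of Synj1 minus that of Synj2 averaged 2.23 ± 0.16 in Dp16, 2.18 ± 0.08 in Dp16_2xIFNRs and 1.73 ± 0.13 in WT (SD, n = 6 each). The difference from WT was 0.50 (95% interval 0.31 to 0.69) in Dp16 and 0.45 (0.30 to 0.59) in Dp16_2xIFNRs. For Itsn1 minus Itsn2 the averages were 2.66 ± 0.12 in Dp16, 2.57 ± 0.15 in Dp16_2xIFNRs and 2.09 ± 0.15 in WT, with differences from WT of 0.57 (0.40 to 0.75) and 0.48 (0.28 to 0.69). None of these groups overlapped with WT, and each of the 4 two-sided exact permutation tests gave p = 0.00216, the smallest that 6 against 6 libraries allow. Between Dp16_2xIFNRs and Dp16 the differences were -0.05 for the synaptojanins (exact permutation p = 0.491) and -0.09 for the intersectins (exact permutation p = 0.292).

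Whether Synj1 and Itsn1 rose by the same factor was asked in the same way. The log2 CPM of Synj1 minus that of Itsn1 averaged 1.04 ± 0.09 in Dp16, 1.06 ± 0.08 in Dp16_2xIFNRs and 0.94 ± 0.16 in WT (SD, n = 6 each), with overlapping ranges. The differences from WT were 0.10 (95% interval -0.06 to 0.26, exact permutation p = 0.188) in Dp16 and 0.12 (-0.03 to 0.28, exact permutation p = 0.108) in Dp16_2xIFNRs. WT replicate 6, a male, had 436 CPM of Synj1 and the lowest Itsn1 of the group at 192 CPM. It was the only library whose removal let the test pass. Without it the differences were 0.15 in Dp16 (exact permutation p = 0.0368) and 0.17 in Dp16_2xIFNRs (exact permutation p = 0.013). Leaving out WT replicate 5 moved them the other way, to 0.065 (exact permutation p = 0.364) and 0.0864 (exact permutation p = 0.214). The intervals of the Synj1 fold held the copy ratio of 1.5, while those of Itsn1 ended just under it.

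**Figure D2:**
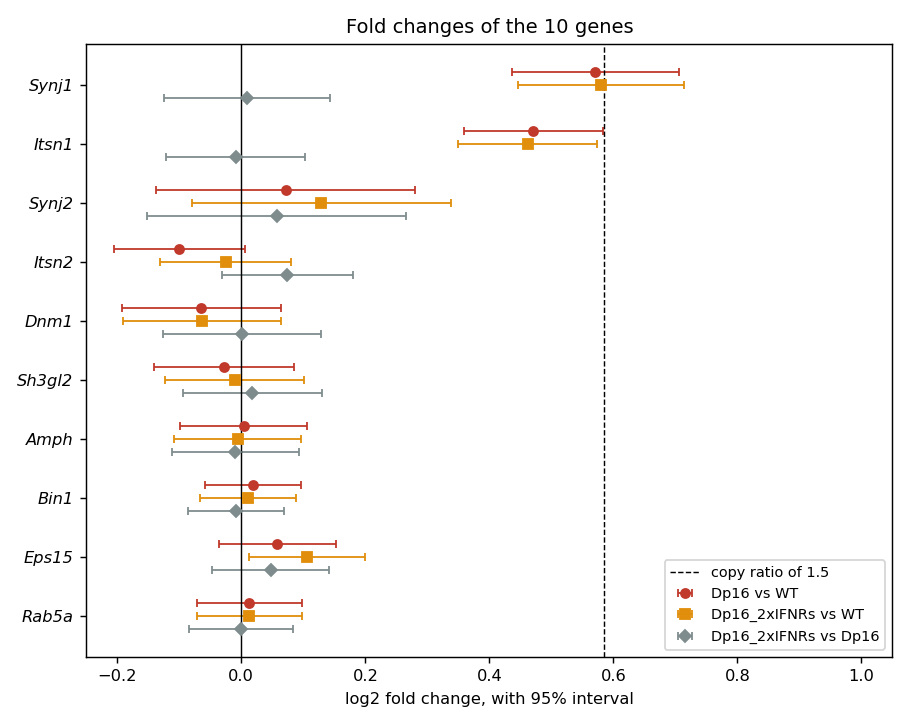
Log2 fold change of each of the 10 genes with its 95% interval for Dp16 vs WT (circles), Dp16_2xIFNRs vs WT (squares) and Dp16_2xIFNRs vs Dp16 (diamonds); the dashed line is the copy ratio of 1.5. Synj1 (0.57 and 0.58) and Itsn1 (0.47 and 0.46) stand away from 0 in both comparisons with WT, and the other 8 genes lie between -0.10 and 0.13.

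Among the genes of the segment the folds of Synj1 and Itsn1 lay in the middle range. Of the 111 tested genes of the segment outside the receptor cluster, Synj1 ranked 49 and Itsn1 81 by fold in Dp16 vs WT, and 50 and 77 in Dp16_2xIFNRs vs WT. The median fold of these genes was 1.46 in Dp16, with quartiles of 1.37 and 1.56, and 1.47 in Dp16_2xIFNRs, with quartiles of 1.33 and 1.55. Both genes lay within the quartiles in both comparisons. By mean CPM, which is not scaled by gene length, Synj1 was of rank 3 and Itsn1 of rank 5 among the 111. The RPKM of Itsn1 rests on a length of 19992 bases. Its WT mean of 9.91 RPKM was below those of the segment genes Atp5o (142 RPKM) and Dyrk1a (14.6 RPKM). Ranks by RPKM in the segment were not computed.

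Between them lie 4 interferon receptor genes and 9 other tested genes. The median fold of the 9 was 1.49 in Dp16 vs WT, from 1.26 (Olig2, an oligodendrocyte lineage factor) to 1.64 (Donson, a replication gene), and 7 of the 9 were called higher, beside 64 of the 111 segment genes ranked above and 0.636% of all genes. In Dp16_2xIFNRs vs WT the median was 1.51 and 6 of the 9 were called higher, beside 63 of the 111 and 0.737% of all genes. The 9 are Paxbp1, Olig2, Olig1, Tmem50b, Dnajc28, Gart, Son, Donson and Cryzl1. The calls of Olig1 and Donson were close to the threshold in Dp16, with edgeR adjusted p of 0.0371 and 0.0398, and were lost in 11 and 13 of the 18 fits that left out 1 library. In Dp16_2xIFNRs Olig1, with an edgeR adjusted p of 0.0495, lost its call in 14 of 18 such fits, and Donson, with 0.0531, gained one in 4 of 18. The 4 receptor genes had a median fold of 1.47 in Dp16 and 1.01 in Dp16_2xIFNRs. Cryzl1, an oxidoreductase-like gene on the opposite strand, head to head with Itsn1 and with 306 bases between the starts of the pair, was 1.52-fold higher in both comparisons with WT (adjusted p = 2.06e-09 in Dp16 and 1.72e-09 in Dp16_2xIFNRs, edgeR). Its interval in Dp16 was 1.44 to 1.59, set beside 1.28 to 1.498 for Itsn1, and the difference between these 2 genes was not tested.

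**Figure D3:**
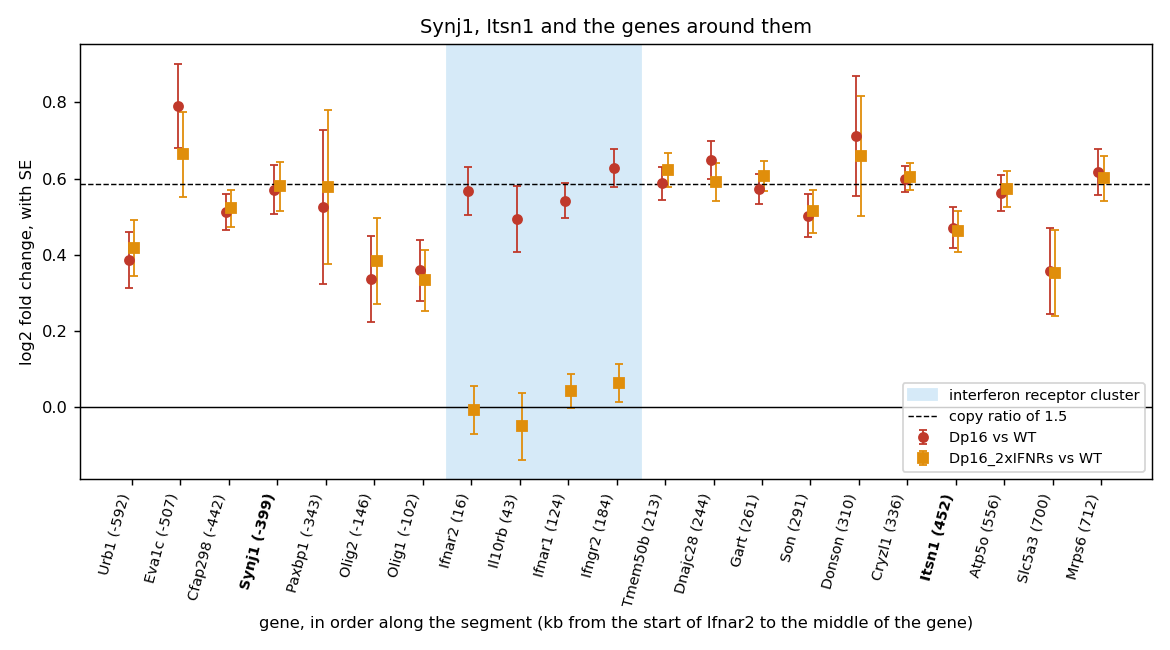
Log2 fold change with SE of Synj1, Itsn1 and the tested genes around them for Dp16 vs WT (circles) and Dp16_2xIFNRs vs WT (squares), in order along the segment; the number after each name is the distance of the gene's middle from the start of Ifnar2 in kb. The 4 receptor genes, on the shaded ground, lie at 0.49 to 0.63 in Dp16 and at -0.05 to 0.06 in Dp16_2xIFNRs, while Synj1 and Itsn1 on either side are at nearly the same height in both.

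The partners that bend, cut and sort the membrane are encoded outside the segment, and none of their differences between genotypes passed the test. Dnm1 had 1399, 1507 and 1671 CPM in the lowest, median and highest Dp16 libraries and 1400, 1554 and 1610 CPM in Dp16_2xIFNRs, against 1425, 1582 and 1807 CPM in WT. The 3 ranges overlapped, and the folds against WT were 0.956 (interval 0.876 to 1.04) in Dp16 and 0.957 (0.876 to 1.05) in Dp16_2xIFNRs. Sh3gl2 encodes a neuronal endophilin, the BAR domain protein that recruits synaptojanin 1 to the bud. It averaged 259 ± 19.3 CPM in Dp16, 261 ± 7.99 CPM in Dp16_2xIFNRs and 264 ± 30.2 CPM in WT (SD, n = 6 each), with folds of 0.981 (0.908 to 1.06) and 0.993 (0.918 to 1.07). Amphiphysin, which links clathrin and dynamin, showed the smallest Dp16 difference of the set, as Amph averaged 194 ± 6.63 CPM in Dp16, 193 ± 10.6 CPM in Dp16_2xIFNRs and 194 ± 16.2 CPM in WT. Its folds were 1.00 (0.934 to 1.08) and 0.996 (0.928 to 1.07).

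Bin1, the amphiphysin relative and a gene known from human Alzheimer's disease association studies, varied least between animals among the 10 genes. It averaged 248 ± 10.98 CPM in Dp16, 247 ± 6.83 CPM in Dp16_2xIFNRs and 245 ± 6.75 CPM in WT (SD, n = 6 each), with folds of 1.01 (interval 0.960 to 1.07) and 1.01 (0.955 to 1.06). Rab5a, the small GTPase of the early endosome, averaged 83.1 ± 5.05 CPM in Dp16, 83.1 ± 2.20 CPM in Dp16_2xIFNRs and 82.4 ± 3.64 CPM in WT, with a fold of 1.01 (0.951 to 1.07) in either comparison. For both genes the 3 groups overlapped.

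Eps15, the clathrin adaptor that binds intersectin, came nearest to a difference. It had 232, 247 and 271 CPM in the lowest, median and highest Dp16 libraries and 244, 259 and 270 CPM in Dp16_2xIFNRs, against 224, 237 and 264 CPM in WT. All 6 Dp16_2xIFNRs libraries lay above the WT mean, although the ranges overlapped. Its fold in Dp16_2xIFNRs was 1.08 (interval 1.01 to 1.15), with an unadjusted p of 0.0294 and an adjusted p of 0.353 by edgeR, so it was not called. In Dp16 its fold was 1.04 (0.976 to 1.11, adjusted p = 0.795, edgeR). In Dp16 vs WT 0 of the 8 partners were called by edgeR, DESeq2 or limma-voom and 0 had an unadjusted p under 0.05, as 8.84% of all genes did by edgeR. In Dp16_2xIFNRs vs WT 0 were called by the 3 tools and 1, Eps15, had an unadjusted p under 0.05, as 11.5% of all genes did by edgeR.

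**Figure D4:**
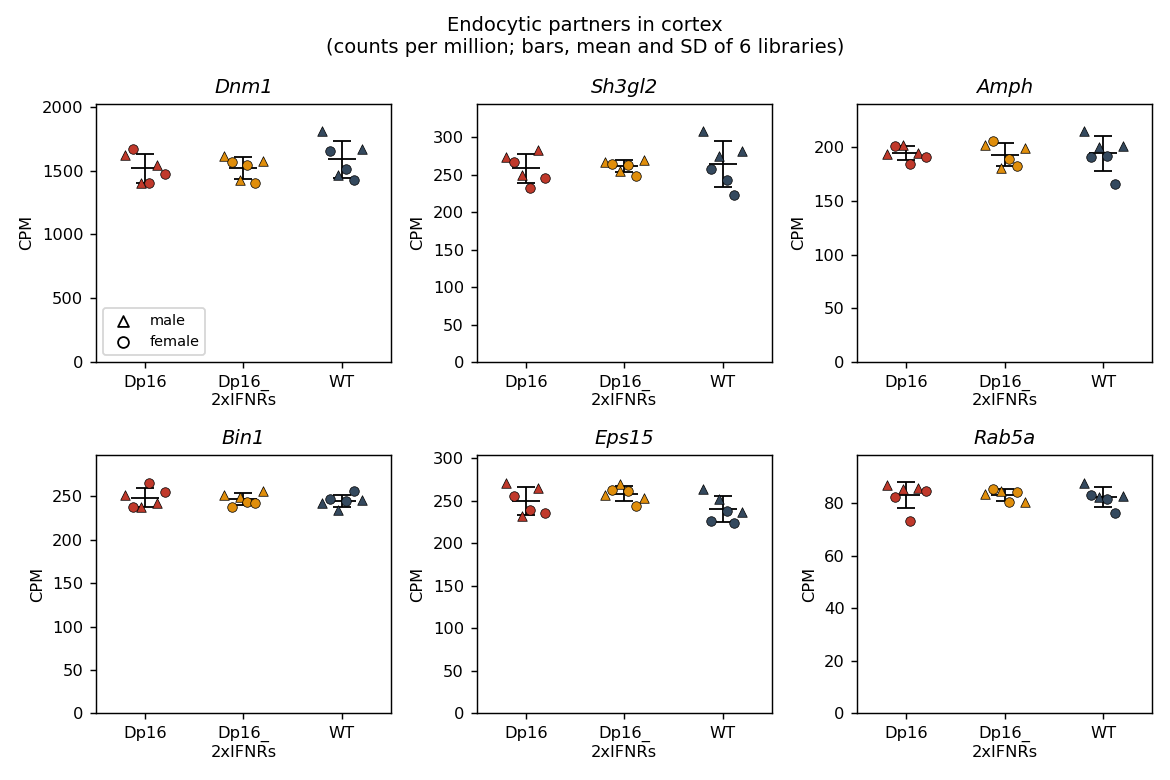
CPM of Dnm1, Sh3gl2, Amph, Bin1, Eps15 and Rab5a in each library, with genotype on the x axis and bars for the mean and SD of 6 libraries; triangles are males and circles females, and each y axis starts at 0. The groups overlap for all 6 genes, and 1 Dp16 library of Rab5a lies below the others at 73.3 CPM.

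Of the 10 members 0 were called for a difference between males and females, beside 0.0641% of all genes, and 2 had an unadjusted p under 0.05, as 6.64% of all genes did. Over all genotypes Synj1 was higher in males by 0.12 on the log2 scale (unadjusted p = 0.0391, adjusted p = 0.741, edgeR) and Sh3gl2 by 0.13 (unadjusted p = 0.00645, adjusted p = 0.741, edgeR). Synj1 averaged 585 ± 21.9 CPM in Dp16 males, against 416 ± 37.1 CPM in WT males, and 552 ± 59.7 CPM in Dp16 females, against 351 ± 26.8 CPM in WT females (SD, n = 3 each). The folds were 1.40 in males and 1.57 in females, and the interaction of genotype and sex did not pass (edgeR adjusted p = 0.9999). In Dp16_2xIFNRs the Synj1 folds against WT were 1.38 in males and 1.62 in females, and the interaction again did not pass (edgeR adjusted p = 0.834). For Synj2 the Dp16 fold was 0.899 in males and 1.23 in females, with an unadjusted p of 0.0187 and an adjusted p of 0.9999 for the interaction by edgeR. For Sh3gl2 the Dp16_2xIFNRs fold was 0.918 in males and 1.07 in females, with an unadjusted p of 0.0343 and an adjusted p of 0.826 by edgeR. These unadjusted values stand against 3.08% of all genes under 0.05 for the Dp16 interaction and 5.87% for the Dp16_2xIFNRs interaction, and edgeR called 0 genes in either, and DESeq2 0 of the 10 members.

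Some of the members, but not all, also varied together from animal to animal within a genotype. With each group's mean taken off, Synj1 and Sh3gl2 had a Pearson r of 0.885 over the 18 libraries, Synj1 and Dnm1 0.829, and Synj1 and Amph 0.781. Synj1 and Itsn1, in contrast, had 0.536, and Bin1 ran the other way with -0.606 to Rab5a and -0.505 to Amph. The values of Itsn2 ran from 0.462 with Synj2 to -0.353 with Itsn1. These values are descriptions, since values of a library share its depth, its scaling and its mixture of cells. Sex was not taken off, although Synj1 and Sh3gl2 both stood higher in males, and its part in these values was not tested. The SD of log2 CPM with group means taken off was largest for Synj2 at 0.19 and smallest for Bin1 at 0.05, with Synj1 at 0.13 and Itsn1 at 0.09. The genes most like Synj1 over all 18 libraries were the segment genes Ttc3 (r = 0.985), App (0.984) and Dscam (0.978), out of 18697 compared. With group means taken off those named by the same rule were Bri3bp (0.956) and Dnajc6 (0.955), which encodes the clathrin uncoating factor auxilin, both outside the segment. For Itsn1 they were Dop1b (0.975), Atp5o (0.948) and Dyrk1a (0.946) over all libraries, again segment genes, and Bsn (0.926), Hectd4 (0.918) and Arhgef12 (0.914) with group means taken off.

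The wider endocytic machinery was read from 8 lists of 124 genes, all of which were tested and 122 of which lie outside the segment. In Dp16 vs WT 0 of the 122 were called by edgeR, beside 0.748% of all genes, and 9 had an unadjusted p under 0.05, beside 8.84% of all genes. DESeq2 called 1 of the 122, where it called 1.35% of all genes, and limma-voom called 0, where it called 0.743%. Their median log2 fold change was -0.01, beside 0.00 for all genes tested. In Dp16_2xIFNRs vs WT 1 of the 122 was called, beside 1.05% of all genes, and 9 had an unadjusted p under 0.05, beside 11.5%, with a median of -0.01 beside 0.00. In both comparisons the shares of the lists lay below those of all genes, so the called gene is described on its own and not as a result of its list. It was Vamp1, a vesicle SNARE of the synaptic vesicle list, with 183 ± 4.62 CPM in Dp16_2xIFNRs, 172 ± 8.53 CPM in Dp16 and 149 ± 13.6 CPM in WT (SD, n = 6 each). It was 1.23-fold higher in Dp16_2xIFNRs than in WT (log2 fold change 0.30, SE 0.0520, edgeR adjusted p = 0.00379). In Dp16 its fold was 1.16 and its adjusted p 0.069 by edgeR. Vamp1 stayed uncalled there in 16 of the 18 fits that left out 1 library and in 11 of 13 other alternatives. The adjusted p rose to 0.177 without WT replicate 2 and to 0.218 with only the libraries of the contrast, both by edgeR. It fell to 0.00801 without WT replicate 6 and 0.0381 without Dp16 replicate 3, both by edgeR, and to 0.0156 with DESeq2. In Dp16_2xIFNRs vs Dp16 0 of the 122 were called by edgeR, DESeq2 or limma-voom, and 0 had an unadjusted p under 0.05.

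The 2 list genes inside the segment both rose, and both belong to the list of kinases and phosphatases that switch endocytic proteins. Of the 111 segment genes ranked by fold, 64 were called higher in Dp16 vs WT and 63 in Dp16_2xIFNRs vs WT. The folds of the 2 genes lay within the quartiles of the 111, 1.37 and 1.56 in Dp16 and 1.33 and 1.55 in Dp16_2xIFNRs. They are therefore described as genes of the segment and not as a result of their list. Dyrk1a, a kinase that phosphorylates dynamin, amphiphysin and synaptojanin, averaged 131 ± 8.33 CPM in Dp16, 132 ± 5.65 CPM in Dp16_2xIFNRs and 92.4 ± 4.68 CPM in WT (SD, n = 6 each). Its folds were 1.42 in Dp16 (edgeR adjusted p = 7.17e-07) and 1.43 in Dp16_2xIFNRs (edgeR adjusted p = 5.77e-07). Rcan1, an inhibitor of calcineurin, the phosphatase that activates these proteins on nerve stimulation, averaged 87.1 ± 2.85 CPM in Dp16, 83.9 ± 3.67 CPM in Dp16_2xIFNRs and 56.4 ± 3.60 CPM in WT. Its folds were 1.54 in Dp16 (edgeR adjusted p = 1.82e-08) and 1.49 in Dp16_2xIFNRs (edgeR adjusted p = 4.69e-08). The other 9 genes of that list were not called.

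The remaining 6 lists had no called member in either comparison with WT, and the 2 genes of each list with the smallest p over both comparisons are given as values. Among 24 clathrin coat and adaptor genes, Ston1 had folds of 1.25 in Dp16 and 1.10 in Dp16_2xIFNRs, and Ap2a2, a subunit of the main endocytic adaptor, 1.07 and 1.05. Among 15 curvature and fission genes, Bin2, known from microglia and other myeloid cells, had 0.821 and 0.842, and Pacsin3 1.06 and 1.10. Among 15 phosphoinositide enzymes, the phosphatases Inpp5f and Inpp5k had 1.07 and 1.09, and 0.921 and 0.902. The 3 uncoating genes stayed between 0.978 and 1.03, including Hspa8, the chaperone that strips clathrin, with 0.978 and 1.03, and Dnajc6 with 1.00 and 1.02. Among 12 intersectin and actin partners, Cdc42, the GTPase that intersectin 1 activates, had 1.03 and 1.06, and Wipf1 1.08 and 1.11. Among 18 genes of Rab5 and the early endosome, Gapvd1 had 0.951 and 0.970, and Pik3r4 0.943 and 0.981. The smallest adjusted p of these 6 lists was 0.389 in Dp16 and 0.228 in Dp16_2xIFNRs, both by edgeR.

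**Figure D5:**
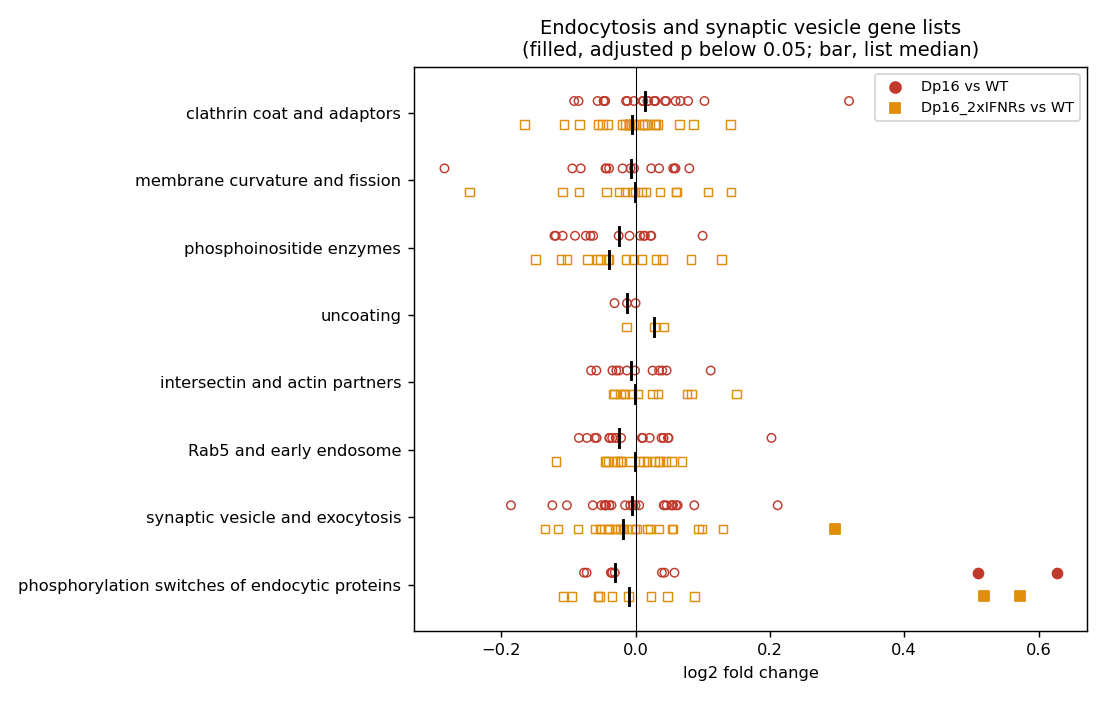
Log2 fold change of each gene of the 8 lists for Dp16 vs WT (circles) and Dp16_2xIFNRs vs WT (squares); filled symbols have an adjusted p below 0.05 and bars mark the median of a list. The filled symbols are Dyrk1a and Rcan1, at 0.51 to 0.63, and Vamp1 in Dp16_2xIFNRs at 0.30.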

How the data were processed

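Cortex RNA was isolated with TRIzol, and strand-specific libraries of its polyadenylated fraction were read from both ends, per the labels' protocols. The submitters' processing notes name bcl2fastq, FastQC 0.11.5, HISAT2 2.1.0, SAMtools 1.5, HTSeq 0.6.1 and the build GRCm38; how the counting treated strand and multi-mapping reads, and any filter, is not given in the sources used here. The authors deposited raw counts per gene, 1 column per library, annotated with GENCODE M24. The authors also deposited RPKM, which equalled the count divided by library total and 1 length per gene for 31735 of 31735 genes (relative tolerance 1e-06); RPKM served for levels and alternatives only.

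Counts were filtered with filterByExpr (minimum count 10), scaled by TMM and tested with edgeR 4.0.16 in R 4.3.3 (quasi-likelihood F test, robust, genotype and sex as terms, all 18 libraries, 14 residual degrees of freedom, common biological coefficient of variation 12.2%). The Benjamini-Hochberg adjusted p threshold over 18717 genes was 0.05. Per-library differences of log2 CPM (prior count 2) entered two-sided exact permutation tests without adjustment. On simulated counts the edgeR step was tested before use. The segment spans Lipi to Zbtb21, positions 75540514 to 97962622 of chromosome 16; 55144 of the 55385 genes were placed by identifier in GENCODE M21.

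The members and lists were chosen with earlier results of these data known. Named were the members, every called list gene in either WT comparison or the 2 of smallest p in lists without one, the genes between Synj1 and Itsn1, the 3 genes most like each (1 of which is not reported here), and members with an unadjusted interaction p under 0.05. Alternatives were DESeq2 1.42.0, limma-voom (limma 3.58.1), RLE factors, TMM computed without the segment, log2(RPKM + 0.1) and log2(RPKM + 1), other filters, other covariates, a replicate block and leaving out each library.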

Additional observations from a re-analysis of the deposited data

Results flagged for a closer look

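With 6 libraries per group, a value far from the other 5 was looked for in 39 groups, and chance would mark about 1 in 20 groups. Such values occurred in 2 groups, both in Dp16 replicate 4, a female. Rab5a stood at 73.3 CPM in that library, below the other 5 Dp16 libraries. Without it the log2 fold change of Rab5a in Dp16 vs WT was 0.04 (edgeR adjusted p = 0.862). The log2 CPM of Synj1 minus that of Itsn1 was 0.863 in the same library, also the lowest of its group. Without it the difference between Dp16 and WT was 0.14 (exact permutation p = 0.0866).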

How the results depend on the processing

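In 930 of 930 values of single members under the alternatives, 31 in each comparison, a member stayed on its side of the threshold, and 2, 2 and 0 of the 10 members were called each time in Dp16 vs WT, Dp16_2xIFNRs vs WT and Dp16_2xIFNRs vs Dp16. Members that were not called crossed 0 in some fits. The comparison of Synj1 with Itsn1 was less firm: leaving out 1 library moved the difference between 0.065 and 0.152 in Dp16 vs WT and between 0.0864 and 0.174 in Dp16_2xIFNRs vs WT, and without WT replicate 6 it passed at 0.152 (exact permutation p = 0.0368) and 0.174 (exact permutation p = 0.013). The count over all genes depended on the tool. edgeR called 140 genes in Dp16 vs WT and 196 in Dp16_2xIFNRs vs WT, against 247 and 394 with DESeq2, and in Dp16_2xIFNRs vs WT 121 without Dp16_2xIFNRs replicate 2, 125 without WT replicate 2 and 270 without WT replicate 6; the cause was not tested. In the sample identifiers 5 numbers recur across genotypes, in 11 of the 18 libraries. Libraries that share a number were of the same sex and of nearly the same age, and no fit used the full number as a term. The labels do not say what these numbers mark. Nor do they say that equal replicate numbers share a litter or day, and the deviations of same-numbered libraries in Dp16 vs WT correlated from -0.145 to 0.318, with 4 of 12 libraries correlating best with their own number (2 of 12 in Dp16_2xIFNRs vs WT and 5 of 12 in Dp16_2xIFNRs vs Dp16). With a replicate block all the same, edgeR called 168 genes in Dp16 vs WT, Synj1 and Itsn1 among them, and 304 in Dp16_2xIFNRs vs WT, and Vamp1 had an adjusted p of 0.0319 in Dp16. In the paired sign-flip test, whose smallest p is 0.03125, Synj1 minus Itsn1 gave exact p-values of 0.156 and 0.1875. The 4 comparisons with a paralogue gave 0.03125 each in that test. In Dp16 vs WT the pairs of replicates 5 and 6 each set a male against a female, so their differences also hold sex. With 6 libraries a group, differences as small as those of Eps15 (fold 1.08) or Itsn2 (fold 0.933) were not called.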
